A study of Homo sapiens with 42 samples.

Results

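The genes described here are 44 human factors of ribosome biogenesis, given as a list of names and ordered by 7 roles. These are RNA polymerase I transcription, the box C/D and the box H/ACA small nucleolar ribonucleoproteins (snoRNPs), nucleolar scaffold proteins and helicases, early and late factors of the small ribosomal subunit, and factors of the large subunit. Each gene was read from the probe set with its symbol alone that had the highest mean log2 signal over the arrays. In this way 39 of the 44 were measured, among 19775 genes in all. NOP56, DKC1, BOP1, PPAN and GNL3 had no probe set annotated with 1 symbol and are not analysed here. The list was chosen with earlier results of these data known.

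RNA came from A375, an established human melanoma cell line, and was measured on 42 Affymetrix arrays in 14 groups of 3. Every culture of 27000 cells had received an siRNA 48 hours before treatment, so no group was free of siRNA. The siRNA was GL2, which targets firefly luciferase and serves as the control, or an siRNA against p53, CDT1 or BRCA1. After GL2 or p53 siRNA the treatment of 26 hours was MLN4924 at 650 nM, Nutlin at 5 uM, daunorubicin at 100 nM, or DMSO at 0.065%, the last in 2 sets of 3 arrays per siRNA. CDT1 and BRCA1 siRNA were combined with DMSO and with MLN4924 only. MLN4924 inhibits the NEDD8-activating enzyme on which cullin-RING ubiquitin ligases depend. Nutlin blocks the binding of MDM2 to p53, and daunorubicin is a DNA-binding anthracycline that poisons topoisomerase II. CDT1 licenses replication origins and BRCA1 acts in homologous recombination. All results come from 1 cell line, and nothing in the labels tells whether replicates came from different cultures. The p-values therefore cover the spread of these arrays alone, which may be technical.

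Ribosomes are built in the nucleolus, where RNA polymerase I transcribes a long precursor that holds most of the ribosomal RNA. SnoRNPs guide its chemical modification, while U3 snoRNP and the UTP proteins assemble on it as the small subunit processome. Other factors cut, fold and escort the precursors of both subunits to the cytoplasm. The genes of these factors are textbook targets of the transcription factor MYC, which binds with MAX to the E-box CACGTG, a motif that related factors also bind.

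Promoter sequences are shown because the members moved in the same direction under several treatments, as described below. RefSeq promoters on GRCh38.p14, spanning 250 bases before and 50 after the annotated start, were found for 33 of the 39 measured members. NOP58, NOLC1, RRP12, DCAF13, RRS1 and RRP1B had no entry. The E-box CACGTG, which reads the same on both strands, was present in 16 of the 33 (48.5%). It was present in 8.9% of the 15384 promoters of genes measured on the arrays, in 7.43% of all 27305 promoters, and in 28.8% of 80 promoters of other subunit factors. Of 47 promoters of cytosolic ribosomal proteins 4.26% held it. The 8 windows of 30 bases below, taken from 8 members of 5 of the roles, run 5′ to 3′ on the strand of the gene, with the E-box in capitals.
FBL, chr19:39846356-39846385, minus strand: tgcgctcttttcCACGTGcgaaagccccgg
NOP10, chr15:34343130-34343159, minus strand: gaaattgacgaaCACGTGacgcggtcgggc
UTP20, chr12:101280083-101280112, plus strand: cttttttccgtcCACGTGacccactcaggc
RRP9, chr3:51941892-51941921, minus strand: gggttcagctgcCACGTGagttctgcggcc
NAT10, chr11:34105602-34105631, plus strand: aatgcgcttgcgCACGTGctgtctaccagt
BYSL, chr6:41921515-41921544, plus strand: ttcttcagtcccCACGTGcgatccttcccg
PES1, chr22:30591880-30591909, minus strand: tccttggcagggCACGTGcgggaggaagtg
MRTO4, chr1:19251807-19251836, plus strand: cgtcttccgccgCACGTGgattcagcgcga

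The 16 promoters held 18 E-boxes, of which 15 began within 36 bases of the start, 11 lay after it and 7 before it. The stretches of 150 bases directly before the start of NAT10 and UTP20 show an E-box close to the start, and that of NCL, the gene of nucleolin, shows a promoter in which these letters were not found.
NAT10, chr11:34105479-34105628, plus strand: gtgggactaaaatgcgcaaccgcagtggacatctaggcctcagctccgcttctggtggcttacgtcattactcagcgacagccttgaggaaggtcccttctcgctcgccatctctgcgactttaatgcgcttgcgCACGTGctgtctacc
UTP20, chr12:101279955-101280104, plus strand: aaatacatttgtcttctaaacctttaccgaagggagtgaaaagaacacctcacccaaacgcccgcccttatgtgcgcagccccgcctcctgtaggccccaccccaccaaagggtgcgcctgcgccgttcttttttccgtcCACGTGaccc
NCL, chr2:231464485-231464634, minus strand: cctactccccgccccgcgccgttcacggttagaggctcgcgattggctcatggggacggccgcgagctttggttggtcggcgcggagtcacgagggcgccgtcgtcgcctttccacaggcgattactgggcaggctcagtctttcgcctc

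The share of G and C over the 250 bases before the start was similar, with a median of 61.6% in the members and 62.4% in all genes. Of the other motifs searched on both strands, the ETS motif CCGGAAGT was in 21.2% of members' promoters against 6.25% of those of all genes measured. The SP1 motif GGGGCGGGG was in 15.2% against 22.6%, the TATA motif TATAAA in 6.06% against 8.76%, and the NRF1 motif in 6.06% against 1.79%. No occurrence overlapping another motif was removed, and a match describes letters only.

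Values below are log2 signals centred on each array's median gene, so a change is relative to that gene. A gene was called when limma's Benjamini-Hochberg adjusted p over all 19775 genes was under 0.05 and the change was at least 1.5-fold. The targeted BRCA1 read 5.82 to 5.98 on the BRCA1 siRNA arrays with DMSO against 8.52 to 8.95 on the 6 GL2 siRNA arrays with DMSO, and CDT1 read 6.51 to 6.77 with its siRNA against 8.56 to 9.16. CDKN1A, a p53 target, read 6.48 to 7.57 with p53 siRNA and DMSO against 9.01 to 9.25. With p53 siRNA it read 8.88 to 9.49 with Nutlin, 9.88 to 10.05 with daunorubicin and 7.14 to 7.89 with MLN4924. With GL2 siRNA it read 12.33 to 12.48, 11.74 to 12.01 and 11.67 to 11.74 in the same order. CDKN1A thus still rose with Nutlin and daunorubicin after p53 siRNA, though to lower values. The melanocyte factor SOX10 read 9.70 to 10.61 with GL2 siRNA and DMSO. In 3 libraries values stood apart. Replicate 1 of p53 siRNA with daunorubicin had actin and GAPDH 5′ to 3′ signal ratios of 0.0118 and 0.0509, a sign of degraded RNA. On the remaining 41 arrays the actin ratio was 0.649 to 0.945 and the GAPDH ratio 0.989 to 1.19. BRCA1 read 4.70 in the library labelled GL2 siRNA with MLN4924 replicate 3 against 7.95 and 8.24 in its partners. It read 8.18 in the library labelled BRCA1 siRNA with MLN4924 replicate 3 against 4.93 and 5.28. CDT1 read 7.27 in the former against 8.86 and 8.81, and 8.61 in the latter against 7.27 and 7.31. In both genes each of these 2 libraries thus read as the other group's replicates did, against its label. Whether the labels were exchanged was not tested, and both were kept as labelled. Every value given for MLN4924 after GL2 or BRCA1 siRNA includes 1 of them, and the counts called with MLN4924, with daunorubicin after p53 siRNA and for the differences between siRNAs are repeated without the 3 libraries.

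The labels do not tie the 2 DMSO sets to treatments. MLN4924 was compared with both sets (6 arrays), and Nutlin and daunorubicin with the first. Over the 113 genes called between the sets, on a scale with 0 for the first and 1 for the second, the Nutlin and daunorubicin arrays lay at -0.252 to 0.226. The MLN4924 arrays lay at 0.192 to 0.381 after GL2 and 0.266 to 0.516 after p53 siRNA, also nearer to the first set in all but 1 array. CDT1 siRNA arrays, however, lay at 0.503 to 0.558 with DMSO and 0.199 to 0.285 with MLN4924. BRCA1 siRNA arrays lay at 0.56 to 0.734 and 0.151 to 0.293. The place moved with MLN4924 itself, so it cannot tell which set a treated array belongs with. With the controls chosen as above, the comparisons in GL2 siRNA cells share control arrays, and so do those in p53 siRNA cells. No member differed between the sets by the call, against 0.182% of all genes higher and 0.389% lower in the second. That call averages GL2 and p53 siRNA and can miss a difference within either. NOP58, for instance, read 11.23 to 11.31 in the first GL2 siRNA set and 11.63 to 11.77 in the second. In bulk RNA, fewer cells of a kind and less RNA per cell cannot be told apart.

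In GL2 siRNA cells the members' median signal was 9.95 to 10.06 on the 6 DMSO arrays. It was 10.29 to 10.35 with MLN4924, 9.44 to 9.51 with Nutlin, and 9.19, 9.41 and 9.46 with daunorubicin. The MLN4924 arrays were thus all above the DMSO arrays and the Nutlin and daunorubicin arrays all below. In p53 siRNA cells the 6 DMSO arrays read 9.59 to 9.88, and MLN4924 gave the highest values of all groups, 10.70 to 10.80. Nutlin read 9.44 to 9.68, overlapping DMSO. Daunorubicin read 9.60, 9.76 and 10.32, the last being the degraded library, so that the other 2 arrays lay within the DMSO range. CDT1 siRNA cells read 9.85 to 9.86 with DMSO and 10.00 to 10.34 with MLN4924. BRCA1 siRNA cells read 9.61 to 9.92 and 10.26 to 10.31.

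On the scaling as deposited the MLN4924 arrays of GL2 siRNA cells still lay above DMSO and those of the other 2 drugs below it, at smaller distances. They read 9.92 to 10.02 with DMSO, 10.11 to 10.15 with MLN4924, 9.56 to 9.68 with Nutlin and 9.49 to 9.61 with daunorubicin. In p53 siRNA cells MLN4924 read 10.34 to 10.38 against 9.68 to 9.86 with DMSO. Centring matters because the median gene itself moved in the deposited values, and calls are therefore given on both scalings where they differ.

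**Figure D1:**
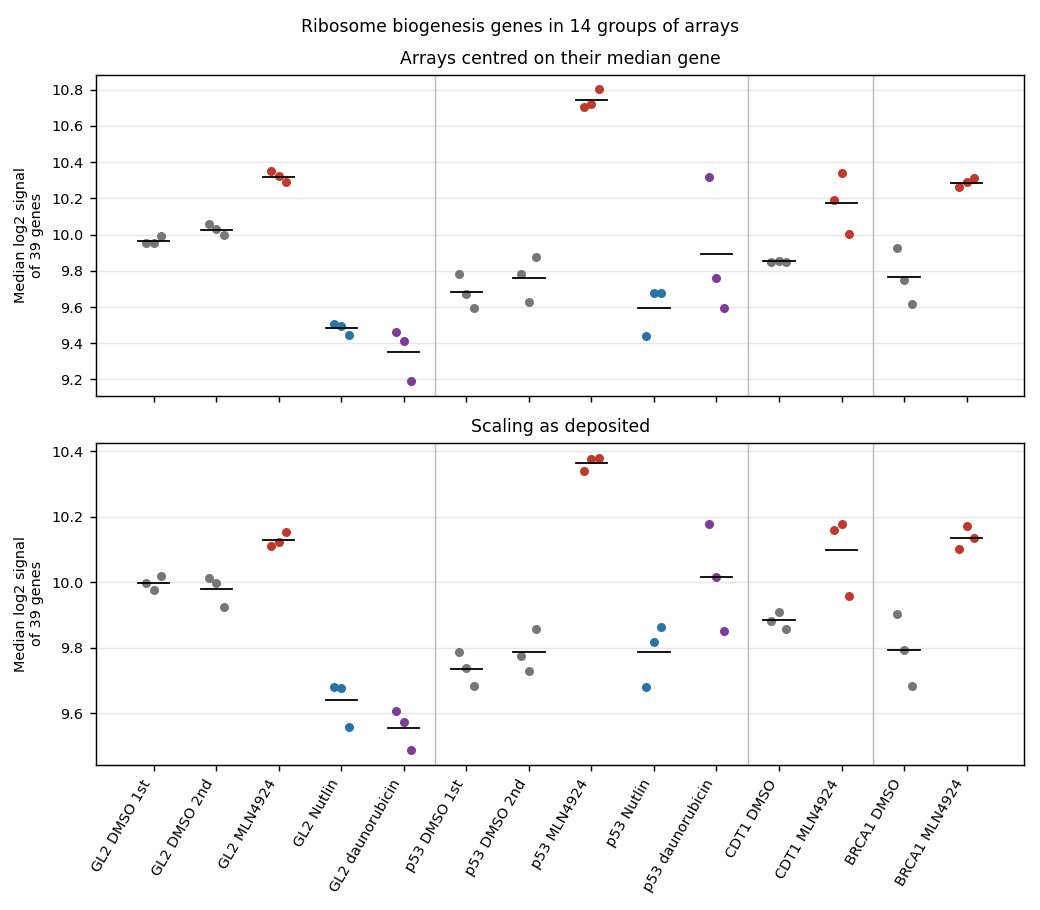
Median log2 signal of the 39 measured members on each of the 42 arrays, by siRNA and treatment group, centred on each array's median gene in the upper panel and as deposited in the lower one. Each point is 1 array and each bar is the mean of 3 arrays. In the upper panel the MLN4924 arrays of p53 siRNA cells read 10.70 to 10.80 and the daunorubicin arrays of GL2 siRNA cells 9.19 to 9.46.

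MLN4924 was the treatment with which members were higher. In p53 siRNA cells 35 of 39 rose and none fell, with a median change of 0.96 (log2), against 17.8% of all genes called higher, 7.6% called lower and a median of 0.20 over all genes. After GL2 siRNA 13 rose, median 0.52, against 10.2% of all genes called higher, 7.06% lower and a median of 0.08. After BRCA1 siRNA 21 rose, median 0.60, against 9.79% higher and 7.15% lower. After CDT1 siRNA 11 rose, median 0.46, against 5.93% higher and 4.63% lower. No member was called lower with MLN4924 under any of the 4 siRNAs. The members were bright, and shares were larger among bright genes. With dim genes left out, 30.6% of the 9888 genes kept were called higher after p53 siRNA, with a median of 0.34. That share was 15.7% after GL2, 15% after BRCA1 and 9.28% after CDT1 siRNA. These 4 comparisons share no arrays. NOLC1, UTP15, WDR43, BYSL, RRP12, NOB1, PES1, RRP1B and RRP15 were called in all 4, which is 9 of the 13, 9 of the 35, 9 of the 11 and 9 of the 21. The PES1 call after CDT1 siRNA ended without any 1 of 5 of its 6 arrays. The RRP15 call after GL2 siRNA ended without any 1 of 4 of its 9 arrays. The members whose arrays with MLN4924 all lay above all DMSO arrays of the same siRNA numbered 38 for p53, 36 for BRCA1, 29 for CDT1 and 26 for GL2 siRNA. That was so for 28.3%, 26.3%, 25.5% and 19.1% of all genes.

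The number called with MLN4924 depended on the scaling. On the deposited scaling 18, 6, 13 and 4 members were called higher after p53, GL2, BRCA1 and CDT1 siRNA, against 5.33%, 5.69%, 5.06% and 4.08% of all genes, and the members' medians were 0.54, 0.34, 0.42 and 0.35. Over all genes the split itself turned, with 3529 higher and 1503 lower in p53 siRNA cells after centring against 1054 higher and 3450 lower as deposited. In GL2 siRNA cells it went from 2010 higher and 1397 lower to 1125 higher and 2152 lower. The median of all genes with MLN4924 in p53 siRNA cells was -0.22 as deposited. Of the members, 37 of 39 were above 0 in p53 siRNA cells and 28 of 39 in GL2 siRNA cells on that scaling. Without the 3 libraries that stood apart, 18 members were called higher in GL2 siRNA cells (11.3% of all genes), 19 in BRCA1 siRNA cells (9.6%) and 35 in p53 siRNA cells (18.2%). Called in addition in GL2 siRNA cells were FBL, NOP14, RRP9, NAT10 and PNO1, while LYAR and PNO1 were no longer called in BRCA1 siRNA cells. The members called under all 4 siRNAs then numbered 12. On the deposited scaling they could number at most 4, the count called after CDT1 siRNA.

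Daunorubicin and Nutlin gave lower values in GL2 siRNA cells. With daunorubicin 19 of 39 fell and none rose, median -0.64, against 9.93% of all genes called lower, 6.49% higher and a median of -0.01. With Nutlin 12 fell and none rose, median -0.39, against 9.67% lower and 6.71% higher. With dim genes left out, 17.5% of the 9888 genes kept were called lower with daunorubicin and 16.3% with Nutlin. The arrays of 32 members lay entirely below the first DMSO set with daunorubicin (22.9% of all genes) and of 30 with Nutlin (23.7%). On the deposited scaling 15 members fell with daunorubicin and 7 with Nutlin, against 6.84% and 7.4% of all genes, with medians of -0.47 and -0.27. Over all genes daunorubicin then gave 2055 higher and 1352 lower, against 1283 higher and 1964 lower after centring.

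In p53 siRNA cells few members were called with either drug. With Nutlin no member was called by limma, 5 had an unadjusted p under 0.05, and the median was -0.10, or 0.04 as deposited, where 0.0405% of all genes were called higher and 0.0152% lower. With daunorubicin RRN3, UTP14A, RRP12 and NOC3L were called higher and none lower, against 5.67% and 6.35% of all genes, and the median of the members was -0.00. With dim genes left out these shares were 8.12% and 11.2%. Without the degraded replicate 1 the count was 1 (2.8% of all genes). Without all 3 libraries that stood apart, RRP12 alone was called higher and LYAR was called lower, against 3.09% of all genes called higher and 6.73% called lower. RNA quality thus moved with this group, and its part in the result was not tested.

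**Figure D2:**
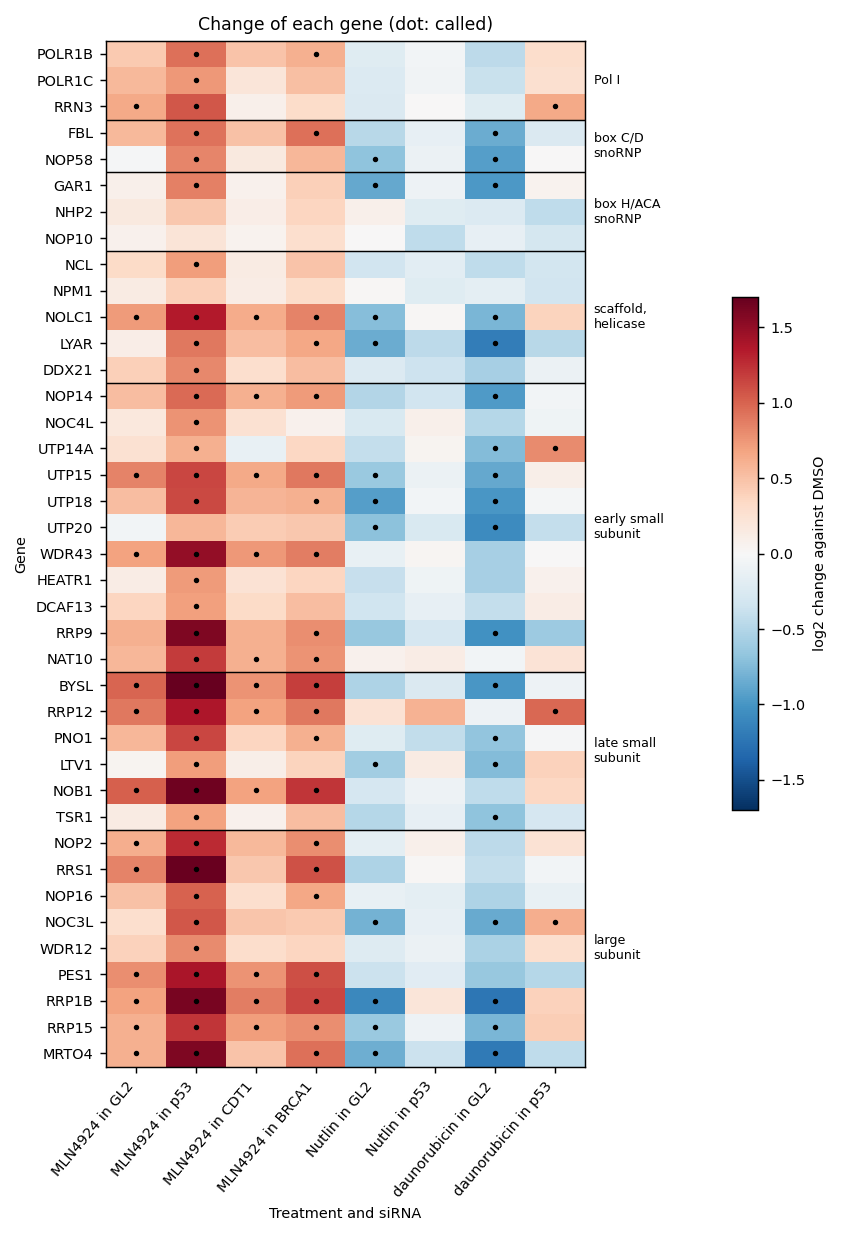
Change of each measured member (rows, by role) with each treatment against DMSO under the same siRNA (columns), as a log2 difference on the centred scale. Colour gives the size and direction, and a dot marks a called change. The column for MLN4924 in p53 siRNA cells holds 35 calls higher, and the column for daunorubicin in GL2 siRNA cells holds 19 calls lower.

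All 3 genes of RNA polymerase I transcription rose with MLN4924 in p53 siRNA cells, and none fell with daunorubicin in GL2 siRNA cells. POLR1B encodes a core subunit of the enzyme. Its log2 signal in GL2 siRNA cells was 9.95 to 10.11 (median 10.02) with DMSO, 10.48, 10.49 and 10.45 with MLN4924 and 9.66, 9.66 and 9.36 with daunorubicin. In p53 siRNA cells it was 9.61 to 9.88 (median 9.78) with DMSO, 10.71, 10.61 and 10.83 with MLN4924 and 10.68, 9.75 and 9.60 with daunorubicin, the first of these being the degraded library. MLN4924 arrays were above and GL2 daunorubicin arrays below DMSO without overlap. POLR1B rose by 0.94 (SE 0.13, adjusted p = 7.7e-07) with MLN4924 in p53 siRNA cells, and the change with daunorubicin in GL2 siRNA cells was -0.44 (SE 0.15, adjusted p = 0.032), short of the 1.5-fold limit.

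POLR1C, a subunit shared with RNA polymerase III, read 8.27 to 8.55 (median 8.37) with DMSO after p53 siRNA and 9.10, 9.09 and 9.24 with MLN4924, a rise of 0.74 (SE 0.11, adjusted p = 3.3e-06). As deposited, the change was 0.32 for POLR1C and 0.52 for POLR1B, and neither was called. RRN3, the initiation factor TIF-IA that recruits the polymerase to ribosomal DNA, was called higher with MLN4924 on both scalings in p53 siRNA cells. It read 9.56 to 9.79 (median 9.67) with DMSO, 10.71, 10.81 and 10.67 with MLN4924 and 10.75, 10.09 and 10.00 with daunorubicin there. The rise with MLN4924 was 1.05 (SE 0.11, adjusted p = 6.1e-09). In GL2 siRNA cells RRN3 read 9.61 to 9.81 (median 9.66) with DMSO and 10.31, 10.29 and 10.37 with MLN4924, a rise of 0.64 (SE 0.11, adjusted p = 3.8e-05) that was 0.45 and not called as deposited. With daunorubicin in GL2 siRNA cells it read 9.62, 9.60 and 9.17, and the change was -0.20 (SE 0.13, adjusted p = 0.319).

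Both box C/D snoRNP proteins fell with daunorubicin in GL2 siRNA cells and rose with MLN4924 in p53 siRNA cells. FBL encodes fibrillarin, the methyltransferase of box C/D snoRNPs, whose promoter E-box is shown above. It read 11.34 to 11.64 (median 11.51) in GL2 siRNA cells with DMSO, 12.18, 12.17 and 11.86 with MLN4924, 10.93, 10.96 and 11.06 with Nutlin and 10.74, 10.70 and 10.36 with daunorubicin. No treated array overlapped the DMSO arrays. FBL fell by 0.85 (SE 0.10, adjusted p = 4.7e-08) with daunorubicin, a 1.8-fold decrease. The change with MLN4924 was 0.55 (SE 0.08, adjusted p = 5.8e-06) in GL2 siRNA cells, not called for its size (0.66 and called without the 3 libraries), and 0.92 (SE 0.08, adjusted p = 3.5e-10) in p53 siRNA cells, where it was 0.51 and not called as deposited. After BRCA1 siRNA FBL read 11.11, 11.12 and 11.06 with DMSO and 12.10, 11.95 and 12.07 with MLN4924, a rise of 0.94 (SE 0.10, adjusted p = 8.1e-09) that was called on both scalings.

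NOP58, a core protein of the same particles, rose with MLN4924 after p53 siRNA, while its GL2 siRNA control sets disagreed. With MLN4924 it read 11.48, 11.47 and 11.41 in GL2 siRNA cells, against a median of 11.47 over the DMSO arrays. That was above the first DMSO set there (11.23 to 11.31) and below the second (11.63 to 11.77). After p53 siRNA it read 11.89, 12.24 and 12.11 against 11.15 to 11.34 (median 11.27) with DMSO. It rose there by 0.83 (SE 0.13, adjusted p = 4.7e-06), or 0.42 without a call as deposited. With daunorubicin in GL2 siRNA cells NOP58 read 10.53, 10.17 and 10.26 and fell by 0.94 (SE 0.15, adjusted p = 1.3e-05).

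Of the 3 box H/ACA proteins, which act in pseudouridylation, GAR1 was called in both directions and NHP2 and NOP10 in neither. GAR1 read 9.86 to 10.04 (median 9.97) in GL2 siRNA cells with DMSO, 9.11, 9.09 and 9.16 with Nutlin and 9.07, 8.88 and 9.08 with daunorubicin, and both drugs' arrays lay below every DMSO array. It fell by 0.87 (SE 0.10, adjusted p = 8.3e-08) with Nutlin and by 0.97 (SE 0.10, adjusted p = 9.0e-09) with daunorubicin. Under p53 siRNA GAR1 read 9.74 to 9.89 (median 9.82) with DMSO and 10.59, 10.66 and 10.78 with MLN4924, a rise of 0.86 (SE 0.09, adjusted p = 3.4e-09) that was 0.45 and not called as deposited. NOP10 carries 2 E-boxes in its promoter and showed the smallest change of all members with MLN4924 in p53 siRNA cells, 0.22 (SE 0.13, adjusted p = 0.212). It read 10.94 to 11.56 (median 11.24) with DMSO and 11.41, 11.53 and 11.45 with MLN4924 there, and the arrays overlapped. On the deposited scaling that change was -0.20.

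Among the 5 nucleolar scaffold proteins and helicases, NCL, NOLC1, LYAR and DDX21 rose with MLN4924 in p53 siRNA cells, and NOLC1 and LYAR fell with daunorubicin in GL2 siRNA cells. NCL encodes nucleolin, an abundant nucleolar RNA-binding protein. It read 12.00 to 12.56 (median 12.18) in GL2 siRNA cells with DMSO, 12.58, 12.53 and 12.54 with MLN4924 and 11.82, 11.84 and 11.65 with daunorubicin. MLN4924 arrays reached the top of the DMSO range and daunorubicin arrays lay below it. With the p53 siRNA it read 11.73 to 12.27 (median 12.05) and 12.80, 12.62 and 12.81 with MLN4924, a rise of 0.71 (SE 0.12, adjusted p = 2.6e-05), which was 0.29 and not called as deposited. NPM1, nucleophosmin, a histone and ribosome chaperone, was not called with either drug. Its GL2 siRNA arrays read 12.32 to 13.20 (median 12.60) with DMSO, 12.82, 12.85 and 12.81 with MLN4924 and 12.57, 12.62 and 12.32 with daunorubicin, so both drugs' arrays fell within the wide DMSO range. After p53 siRNA NPM1 read 13.05, 12.89 and 13.20 with MLN4924 against 12.53 to 12.83 (median 12.58), a change of 0.41 (SE 0.15, adjusted p = 0.0325) that was -0.00 as deposited.

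NOLC1, the phosphoprotein Nopp140 that chaperones snoRNPs, was among the 9 members called higher with MLN4924 under all 4 siRNAs. In GL2 siRNA cells it read 10.58 to 10.90 (median 10.70) with DMSO, 11.58, 11.48 and 11.24 with MLN4924, 10.07, 10.04 and 10.00 with Nutlin and 10.11, 10.04 and 9.77 with daunorubicin. The 3 drugs' arrays were clear of the DMSO arrays, above them with MLN4924 and below them with the others. NOLC1 rose by 0.73 (SE 0.14, adjusted p = 9.1e-05) with MLN4924, where the deposited scaling gave 0.54 without a call, and fell by 0.78 (SE 0.16, adjusted p = 2.9e-04) with daunorubicin. Under p53 siRNA MLN4924 gave 11.76, 11.72 and 11.92 against 10.34 to 10.60 (median 10.46) with DMSO, a rise of 1.35 (SE 0.14, adjusted p = 2.3e-09). After CDT1 siRNA the rise of 0.63 lost its call as deposited (0.52) and without replicate 2 of MLN4924 (0.54).

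LYAR is a nucleolar zinc finger protein. It read 9.94 to 10.37 (median 10.09) in GL2 siRNA cells with DMSO, 10.22, 10.30 and 10.17 with MLN4924, 9.14, 9.03 and 9.33 with Nutlin and 8.95, 9.02 and 8.53 with daunorubicin. MLN4924 arrays lay within the DMSO range and those of the other 2 drugs below it. LYAR fell by 0.84 (SE 0.17, adjusted p = 3.9e-04) with Nutlin and by 1.18 (SE 0.17, adjusted p = 3.7e-06) with daunorubicin, the latter a 2.26-fold decrease. With the p53 siRNA it rose by 0.89 (SE 0.15, adjusted p = 1.3e-05) with MLN4924, from 9.38 to 9.91 (median 9.62) with DMSO to 10.37, 10.69 and 10.55, and was not called as deposited, at 0.48.

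The 11 early factors of the small subunit act in or with the small subunit processome, and 10 rose with MLN4924 in p53 siRNA cells. With daunorubicin in GL2 siRNA cells 6 fell, namely NOP14, UTP14A, UTP15, UTP18, UTP20 and RRP9. UTP20, a large scaffold protein of the processome, was the member of this role not called with MLN4924. It read 8.46 to 8.70 (median 8.59) in p53 siRNA cells with DMSO and 9.09, 9.15 and 9.20 with MLN4924, without overlap, a change of 0.56 (SE 0.13, adjusted p = 5.7e-04). In GL2 siRNA cells UTP20 read 8.33 to 8.80 (median 8.76) with DMSO and 7.66, 7.73 and 7.28 with daunorubicin. It fell there by 1.07 (SE 0.15, adjusted p = 1.2e-06), a 2.1-fold decrease.

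RRP9 encodes a U3 snoRNP protein. After GL2 siRNA it read 8.39 to 8.70 (median 8.52) with DMSO, 9.23, 9.34 and 8.84 with MLN4924 and 7.55, 7.61 and 7.25 with daunorubicin, and in p53 siRNA cells 7.70 to 8.11 (median 7.86) with DMSO and 9.42, 9.50 and 9.55 with MLN4924. MLN4924 arrays lay above the DMSO arrays of their siRNA. The rise with MLN4924 in p53 siRNA cells was 1.59 (SE 0.24, adjusted p = 2.2e-06), and RRP9 fell by 1.03 (SE 0.27, adjusted p = 0.00531) with daunorubicin in GL2 siRNA cells. With daunorubicin after p53 siRNA it read 6.07, 7.60 and 8.29, the lowest value being that of the degraded library.

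NAT10, an RNA acetyltransferase acting on the small subunit RNA, was called with MLN4924 in p53 siRNA cells and not called with daunorubicin. It read 9.23 to 9.40 (median 9.30) in GL2 siRNA cells with DMSO, 10.08, 9.87 and 9.68 with MLN4924 and 9.34, 9.33 and 8.98 with daunorubicin. The daunorubicin change was -0.04 (SE 0.11, adjusted p = 0.876), with 2 arrays inside the DMSO range and 1 below it. After p53 siRNA NAT10 rose by 1.19 (SE 0.10, adjusted p = 2.7e-11), from 8.61 to 8.83 (median 8.70) with DMSO to 10.04, 9.71 and 10.00 with MLN4924. Of the others, WDR43 and UTP15 rose by 1.49 and 1.14 there. UTP14A rose by 0.61, which lost its call as deposited (0.19), without replicate 2 of the second DMSO set (0.57) and without replicate 3 of MLN4924 (0.56).

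All 6 late factors of the small subunit rose with MLN4924 in p53 siRNA cells, and BYSL, PNO1, LTV1 and TSR1 fell with daunorubicin in GL2 siRNA cells. BYSL encodes bystin, which binds the small subunit precursor before export. It read 8.56 to 8.79 (median 8.70) in GL2 siRNA cells with DMSO, 9.83, 9.84 and 9.38 with MLN4924, 8.08, 8.10 and 8.19 with Nutlin and 7.68, 7.81 and 7.45 with daunorubicin. Each drug's arrays were clear of DMSO. Under p53 siRNA BYSL read 8.14 to 8.46 (median 8.27) with DMSO and 10.04, 9.91 and 9.99 with MLN4924. BYSL had the largest change of all members in that comparison, a rise of 1.69 (SE 0.12, adjusted p = 1.2e-12), or 3.22-fold. It rose by 0.99 (SE 0.12, adjusted p = 8.0e-08) in GL2 siRNA cells and fell there by 0.99 (SE 0.14, adjusted p = 1.1e-06) with daunorubicin. These 3 calls stood on the deposited scaling, at 1.27, 0.81 and -0.82.

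RRP12, a transport factor of both subunits, was called higher with MLN4924 and was not called lower with daunorubicin. It read 8.36 to 8.89 (median 8.67) in GL2 siRNA cells with DMSO, 9.74, 9.49 and 9.36 with MLN4924 and 8.81, 8.78 and 8.52 with daunorubicin, the last overlapping DMSO. With the p53 siRNA it read 8.11 to 8.78 (median 8.41) with DMSO, 10.09, 9.52 and 9.77 with MLN4924 and 9.36, 9.40 and 9.53 with daunorubicin, both drugs clear of DMSO. RRP12 rose by 1.37 (SE 0.14, adjusted p = 1.6e-09) with MLN4924 and by 0.97 (SE 0.16, adjusted p = 4.5e-05) with daunorubicin in p53 siRNA cells. Without the degraded library and the other 2 that stood apart the daunorubicin change was 1.0. Of its 4 dimmer probe sets, however, 2 gave negative daunorubicin changes in p53 siRNA cells, -0.44 and -0.56. TSR1, which resembles a GTPase of the small subunit, read 10.97 to 11.20 (median 11.08) with DMSO and 10.40, 10.40 and 10.23 with daunorubicin in GL2 siRNA cells. TSR1 fell by 0.68 (SE 0.09, adjusted p = 3.3e-07), which was -0.50 and not called as deposited. A further TSR1 probe set with a mean log2 signal of 9.01 gave a change of 0.17 there, and the remaining ones gave -0.72 and -0.15. The fall of PNO1, -0.67, lost its call as deposited and without replicate 3 of daunorubicin (-0.56).

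All 9 large subunit factors rose with MLN4924 in p53 siRNA cells, and NOC3L, RRP1B, RRP15 and MRTO4 fell with daunorubicin in GL2 siRNA cells. WDR12 is part of the PeBoW complex with PES1 and BOP1. It read 9.38 to 9.79 (median 9.71) in p53 siRNA cells with DMSO and 10.47, 10.33 and 10.61 with MLN4924, a rise of 0.81 (SE 0.13, adjusted p = 7.6e-06), the smallest in this role, which was 0.40 and not called as deposited. PES1, its partner, rose by 1.39 (SE 0.21, adjusted p = 3.2e-06). RRS1, an assembly factor of the large subunit precursor, read 9.83 to 10.17 (median 10.09) in GL2 siRNA cells with DMSO, 10.97, 10.93 and 10.77 with MLN4924 and 9.84, 9.48 and 9.61 with daunorubicin. RRS1 rose by 0.84 (SE 0.14, adjusted p = 1.5e-05) with MLN4924 there and by 1.68 (SE 0.14, adjusted p = 3.2e-11) in p53 siRNA cells, where it read 8.74 to 9.63 (median 8.96) with DMSO and 10.70, 10.74 and 10.98 with MLN4924. The daunorubicin change was -0.40 (SE 0.16, adjusted p = 0.0692) in GL2 siRNA cells.

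RRP1B, a nucleolar protein of the large subunit pathway, had the largest decrease of the members with daunorubicin. After GL2 siRNA it read 10.37 to 10.63 (median 10.47) with DMSO, 11.42, 11.25 and 10.80 with MLN4924, 9.42, 9.56 and 9.52 with Nutlin and 9.46, 9.41 and 9.19 with daunorubicin. All 9 treated arrays were clear of the 6 DMSO arrays. RRP1B fell by 1.23 (SE 0.17, adjusted p = 8.3e-07) with daunorubicin and by 1.09 (SE 0.17, adjusted p = 6.6e-06) with Nutlin, on the deposited scaling too (-1.06 and -0.96). It rose by 0.68 (SE 0.14, adjusted p = 4.1e-04) with MLN4924, a call lost as deposited (0.50) and without replicate 1 of MLN4924 (0.55). After p53 siRNA it read 10.16 to 10.38 (median 10.31) with DMSO, 12.01, 11.79 and 11.91 with MLN4924, 10.56, 10.40 and 10.50 with Nutlin and 11.30, 10.47 and 10.22 with daunorubicin. The rise with MLN4924 there was 1.61 (SE 0.14, adjusted p = 2.2e-10), or 3.05-fold. MRTO4, a paralogue of a ribosomal stalk protein, rose by 1.59 (SE 0.15, adjusted p = 1.0e-09) with MLN4924 in p53 siRNA cells and fell by 1.20 (SE 0.18, adjusted p = 4.2e-06) with daunorubicin in GL2 siRNA cells.

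**Figure D3:**
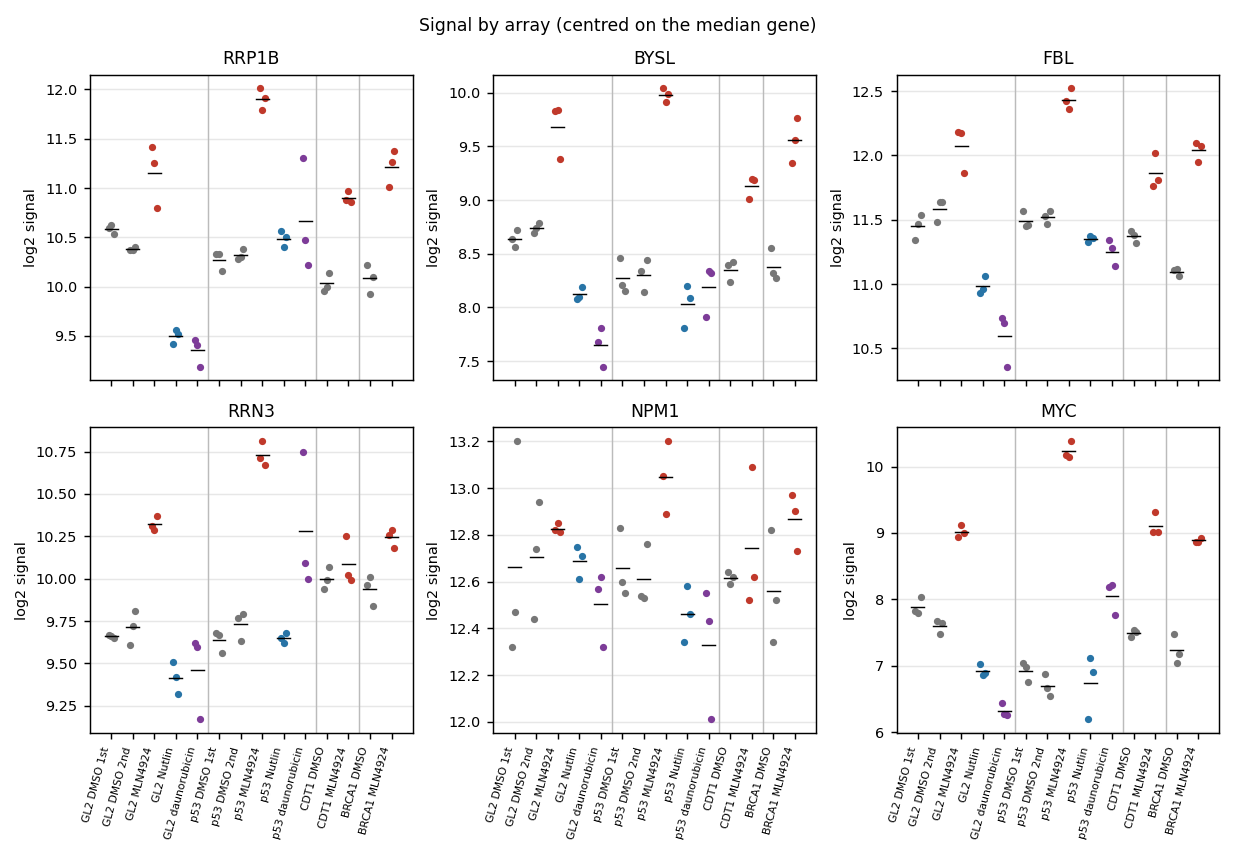
Log2 signal, centred on each array's median gene, of RRP1B, BYSL, FBL, RRN3, NPM1 and MYC on all 42 arrays by group. Each point is 1 array and each bar the mean of 3. BYSL lies at 9.91 to 10.04 with MLN4924 after p53 siRNA and at 7.45 to 7.81 with daunorubicin after GL2 siRNA, while NPM1 with either drug in GL2 siRNA cells lies within its DMSO range of 12.32 to 13.20.

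Different probe sets of a gene read different parts of its transcripts. In 22 members there was more than 1 probe set, 40 further ones in all, and 26 of these (17 genes) were at or above the median gene. All 26 had a change above 0 with MLN4924 in p53 siRNA cells. With daunorubicin in GL2 siRNA cells 25 of 26 had a change below 0, the exception being a probe set of TSR1 at 0.17. Among dim ones, a further probe set of PES1 with a mean log2 signal of 1.71 gave changes of 0.07 and -0.05 with MLN4924 in GL2 and p53 siRNA cells, against 0.79 and 1.39 for the probe set used. Across the 39 genes the MLN4924 change in p53 siRNA cells had a Spearman correlation of -0.37 with the mean signal, and the daunorubicin change in GL2 siRNA cells one of 0.22. This describes 39 genes measured on the same arrays, where the brightest probe sets can be compressed by saturation, which was not tested.

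The difference between the MLN4924 and daunorubicin changes was taken as a contrast of its own within each siRNA. The members were chosen with earlier results of these data known. The adjusted p-values of this contrast therefore describe a difference and do not test it independently. After GL2 siRNA 36 of 39 members were higher with MLN4924 than with daunorubicin, each relative to its DMSO arrays, with a median difference of 1.03, against 18.2% of all genes called higher, 9.03% lower and a median of 0.10. The members not called were NHP2, NOP10 and NPM1. With dim genes left out, 32.5% of the 9888 genes kept were called higher, with a median of 0.31. BYSL had the largest difference, 1.99 (SE 0.15, adjusted p = 1.5e-11), followed by RRP1B with 1.91 (SE 0.18, adjusted p = 1.6e-09) and MRTO4 with 1.79 (SE 0.20, adjusted p = 1.9e-08). The differences of NOP10 and NPM1 were 0.21 (SE 0.17, adjusted p = 0.38) and 0.30 (SE 0.20, adjusted p = 0.274). Against DMSO 37 members had a change above 0 with MLN4924 and below 0 with daunorubicin. Both changes were called in 6, NOLC1, UTP15, BYSL, RRP1B, RRP15 and MRTO4, against 0.829% of all genes. A difference can thus rest mainly on 1 drug, as in GAR1 (0.08 and -0.97) and NAT10 (0.57 and -0.04). By role, 3 of 3 genes of RNA polymerase I transcription, 2 of 2 box C/D, 1 of 3 box H/ACA, 4 of 5 scaffold and helicase, 11 of 11 early and 6 of 6 late small subunit and 9 of 9 large subunit genes were called.

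Under p53 siRNA 30 members were higher with MLN4924 than with daunorubicin, median 0.97, against 19.1% of all genes higher and 7.8% lower. The others were POLR1C, RRN3, NOP10, UTP14A, DCAF13, RRP12, LTV1, NOC3L and WDR12. With dim genes left out, 34.8% of the genes kept were called higher. RRP9 had the largest difference there, 2.22 (SE 0.31, adjusted p = 1.2e-06), with daunorubicin arrays at 6.07, 7.60 and 8.29. Without the 3 libraries that stood apart 36 members were called, against 23.5% of all genes, and the RRP9 difference was 1.59. As deposited, 24 members were called higher in GL2 siRNA cells (8.82% of all genes). With the p53 siRNA it was 13 higher (5.05%) and 1 lower, UTP14A (19.3%). The split over all genes in GL2 siRNA cells turned from 3598 higher and 1785 lower to 1745 higher and 3428 lower.

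**Figure D4:**
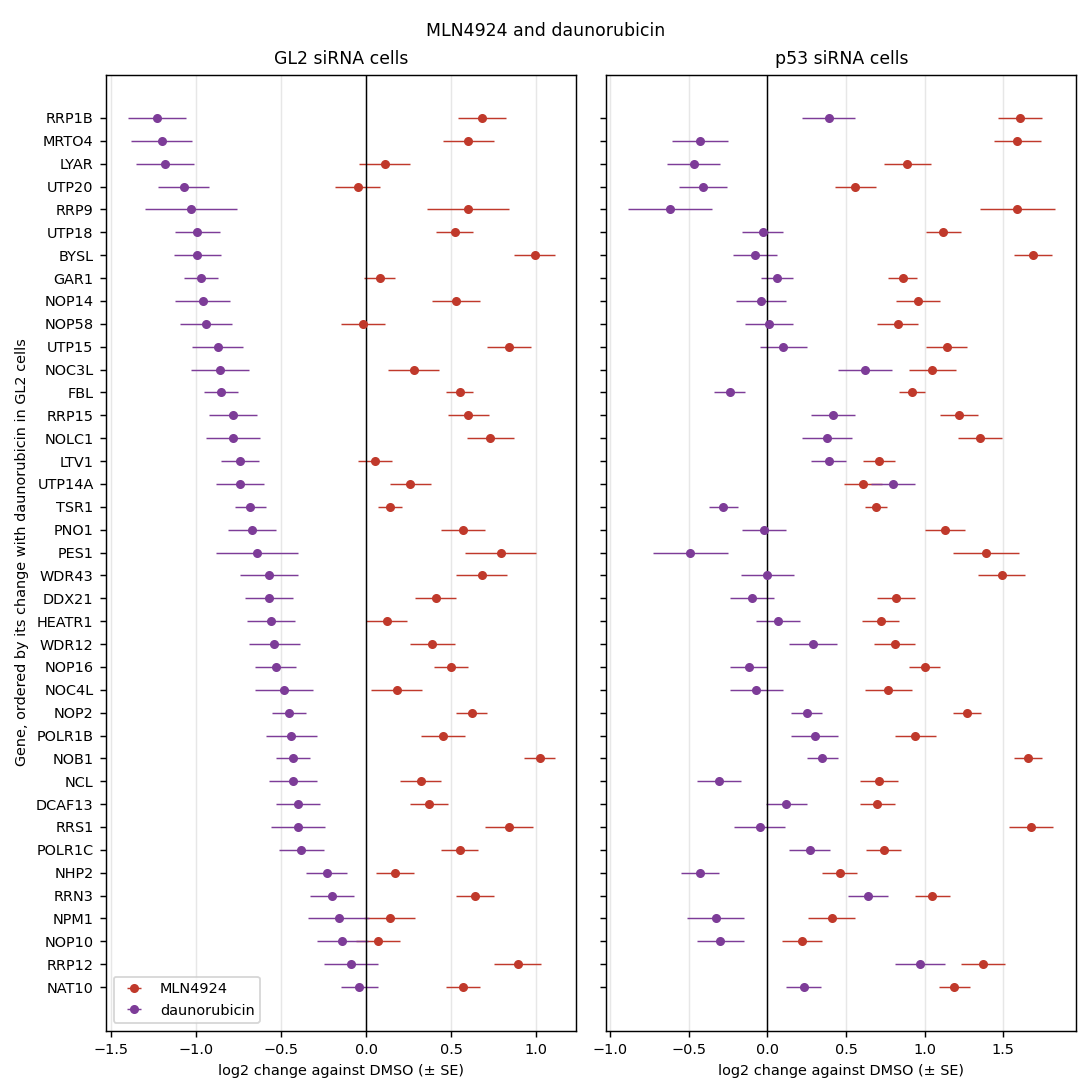
Change of each measured member (rows, ordered by the daunorubicin change in GL2 siRNA cells) with MLN4924 and with daunorubicin, as log2 differences from DMSO on the centred scale with bars for 1 SE, in GL2 siRNA cells (left) and p53 siRNA cells (right). After GL2 siRNA the changes run from -0.05 to 1.02 with MLN4924 and from -1.23 to -0.04 with daunorubicin, and both drugs share control arrays in part.

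Whether p53 siRNA altered the drug changes was tested as a difference of changes, p53 less GL2 siRNA. For daunorubicin 25 of 39 members had a more positive change after p53 siRNA and none a more negative one, median 0.70. Of all genes 9.65% were more positive and 5.69% more negative. With dim genes left out these shares were 19.1% and 11.5%. RRP1B differed by 1.62 (SE 0.23, adjusted p = 6.5e-06), UTP14A by 1.53 (SE 0.20, adjusted p = 1.1e-06) and NOC3L by 1.48 (SE 0.24, adjusted p = 4.6e-05). NOLC1 differed by 1.16 (SE 0.22, adjusted p = 2.9e-04) and RRP12 by 1.05 (SE 0.22, adjusted p = 8.9e-04). All 5 stood on the deposited scaling, where 19 members were called (8.58% of all genes), and without the 3 libraries that stood apart, where 19 were called as well (7.63%). A fit of only the 4 groups compared took the spread from those arrays alone and called 6 (4.35% of all genes). There the daunorubicin arrays of p53 siRNA cells, with the degraded library, spread widely. In RRP1B their standard deviation was 0.57, against 0.05 to 0.14 in the other groups compared. The fit of all 14 groups pools the spread of each gene over groups, so its adjusted p-values can be too small for this group. The calls of POLR1B and POLR1C, at 0.74 and 0.66, ended without the degraded replicate 1 of daunorubicin, at 0.40 and 0.39. The POLR1B call also ended without replicate 3 of daunorubicin after GL2 siRNA (0.63). The FBL difference of 0.62 lost its call as deposited (0.52), without the degraded library, and without replicate 3 of the first DMSO set or of daunorubicin after GL2 siRNA, with 0.49 to 0.68 as the range over all arrays left out.

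For Nutlin 5 members, GAR1, NOLC1, UTP18, LTV1 and RRP1B, had a more positive change after p53 siRNA and none a more negative one. The members' median was 0.32. Of all genes 5.3% were more positive and 4.72% more negative. Among the 9888 genes kept when dim ones were left out, these shares were 10.9% and 9.05%. Whether the count of 5 exceeds that of equally bright genes was not tested. RRP1B differed by 1.29 (SE 0.23, adjusted p = 2.0e-04) and GAR1 by 0.78 (SE 0.14, adjusted p = 2.6e-04). RRP1B read 10.56, 10.40 and 10.50 with Nutlin after p53 siRNA, above all its DMSO arrays, and 9.42, 9.56 and 9.52 after GL2 siRNA, below all of them. The NOLC1 difference of 0.73 was close to the threshold. It ranged from 0.66 to 0.80 over the arrays left out, and lost its call without replicate 3 of the first GL2 siRNA DMSO set, replicate 2 or 3 of the first p53 siRNA DMSO set, replicate 2 or 3 of Nutlin after GL2 siRNA, or replicate 3 of Nutlin after p53 siRNA. With both DMSO sets as controls 9 members were called (7.05% of all genes) and with the second set 10 (6.87%).

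For MLN4924 19 members had a more positive change after p53 siRNA and none a more negative one, median 0.60. Of all genes 6.96% were more positive and 3.41% more negative. With dim genes left out these shares were 14.2% and 5.43%. NOP58 differed by 0.86 (SE 0.18, adjusted p = 0.00177), RRP1B by 0.93 (SE 0.20, adjusted p = 0.00209), RRS1 by 0.85 (SE 0.19, adjusted p = 0.00317) and MRTO4 by 1.0 (SE 0.22, adjusted p = 0.00207), and these 4 alone were called on the deposited scaling (3.3% of all genes). The NOP58 difference rests on the mean of 2 GL2 siRNA DMSO sets that did not overlap in this gene. The count of members called fell to 9 without replicate 3 of MLN4924 after GL2 siRNA, the library with a low BRCA1 signal (4.48% of all genes). It was 12 without replicate 3 of MLN4924 after p53 siRNA (5.04%), 11 without the 3 libraries that stood apart (6.62% of all genes), and 8 with the first DMSO set alone (4.19%).

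Under DMSO the siRNAs themselves left most members uncalled. With p53 siRNA RRP9 and RRS1 were lower than with GL2 siRNA and none higher, against 2.27% and 1.71% of all genes, and the members' median was -0.20. RRS1 fell by 0.93 (SE 0.11, adjusted p = 5.1e-07), reading 8.74 to 9.63 (median 8.96) against 9.83 to 10.17 (median 10.09), with no overlap. RRP9 fell by 0.64 (SE 0.19, adjusted p = 0.0284), which was -0.60 and not called as deposited, and its call also ended without any 1 of 8 of the 12 DMSO arrays, all but replicate 3 of the first and 1 of the second GL2 siRNA set and replicate 1 of the first and 3 of the second p53 siRNA set. With CDT1 siRNA LYAR and RRP15 were lower and none higher, against 3.58% and 2.72%, median -0.17. LYAR read 9.53, 9.38 and 9.54 there, below every GL2 siRNA array with DMSO, and fell by 0.63 (SE 0.15, adjusted p = 0.00427), a call that ended without replicate 2 of CDT1 siRNA with DMSO (-0.58). RRP15 fell by 1.04 (SE 0.12, adjusted p = 6.8e-07). With BRCA1 siRNA LYAR alone was lower and none higher, against 4.37% and 4.11%, median -0.20, at 9.42, 9.64 and 9.42 and a fall of 0.62 (SE 0.15, adjusted p = 0.00419). That call ended as deposited (-0.58), and at -0.58 without replicate 3 of BRCA1 siRNA with DMSO or replicate 3 of the second GL2 siRNA set.

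Other genes of the pathway were taken from lists of names. Beside them, 17.8% of all genes were called higher with MLN4924 in p53 siRNA cells. With daunorubicin in GL2 siRNA cells 9.93% of all genes were called lower. With dim genes left out these shares were 30.6% and 17.5%. Of 41 other small subunit factors 30 were called higher with MLN4924 in p53 siRNA cells, median 0.81, and 17 lower with daunorubicin in GL2 siRNA cells, median -0.52. Of 48 other large subunit factors 41 were higher, median 0.93, and 18 lower, median -0.49. All 12 other snoRNP and assembly factors were higher, median 0.76, and 3 lower, median -0.53. Of 13 genes of the RNA exosome, which trims ribosomal RNA precursors, 10 were higher, median 0.78, and 6 lower, median -0.56. Of 12 other RNA polymerase I genes 6 were higher, median 0.65, and 4 lower, median -0.39. As deposited, the calls higher with MLN4924 in p53 siRNA cells were 9, 18, 2, 3 and 3 in the same order of lists, against 5.33% of all genes.

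The 53 cytosolic ribosomal proteins measured, the structural components that the members assemble, differed in their counts. With MLN4924 in p53 siRNA cells 1, RPL14, was called higher (17.8% of all genes), and the median was 0.40, or -0.02 as deposited. RPL14 read 11.91 to 12.18 with DMSO and 12.57, 12.53 and 12.72 with MLN4924, a rise of 0.59 (SE 0.11, adjusted p = 4.4e-05) that was 0.17 and not called as deposited. With daunorubicin in GL2 siRNA cells none was called, against 9.93% of all genes lower and 6.49% higher, and the median was -0.03. Many ribosomal protein genes have near-identical processed copies, so their probe sets may read several of them. Among bright members, NPM1 and NHP2 (mean log2 signals 12.66 and 12.02) changed by 0.41 and 0.46 with MLN4924 in p53 siRNA cells, without a call. NCL and DDX21 (12.15 and 11.97) rose by 0.71 and 0.82 and were called. The part of brightness in the difference between ribosomal proteins and members was not tested.

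MYC, the E-box factor named above, was called with all 3 drugs in GL2 siRNA cells. It read 7.47 to 8.03 (median 7.73) with DMSO, 8.94, 9.12 and 9.0 with MLN4924, 7.02, 6.86 and 6.89 with Nutlin and 6.44, 6.27 and 6.26 with daunorubicin, each drug clear of DMSO. MYC rose by 1.28 (SE 0.14, adjusted p = 1.2e-08) with MLN4924 and fell by 0.96 (SE 0.16, adjusted p = 2.3e-05) with Nutlin and by 1.56 (SE 0.16, adjusted p = 4.8e-09) with daunorubicin. After p53 siRNA it read 6.55 to 7.04 (median 6.81) with DMSO, 10.17, 10.14 and 10.38 with MLN4924, 6.19, 7.11 and 6.90 with Nutlin and 8.18, 8.21 and 7.76 with daunorubicin. MYC rose by 3.42 (SE 0.14, adjusted p = 5.4e-18) with MLN4924, or 10.7-fold. It rose by 1.13 (SE 0.16, adjusted p = 6.7e-06) with daunorubicin there, where the members' median change was -0.00, and fell by 0.93 (SE 0.11, adjusted p = 5.5e-07) with p53 siRNA under DMSO. The MLN4924 rise was 1.61 (SE 0.16, adjusted p = 7.5e-09) after CDT1 and 1.65 (SE 0.16, adjusted p = 1.8e-09) after BRCA1 siRNA. Of the 11 genes of the MYC network measured, MYC included, 6 rose and 1 fell with MLN4924 in GL2 siRNA cells (10.2% and 7.06% of all genes). In p53 siRNA cells 5 rose and 1 fell (17.8% and 7.6%). The partner MAX rose by 0.80 and 0.94, and the antagonists MXD1 by 1.72 and 0.99 and MXI1 by 2.04 and 2.00, while MXD3, another antagonist, fell by 1.32 and 1.62. As deposited, the p53 siRNA values of MAX and MXD1 were 0.52 and 0.57, without a call. Whether MYC had a part in the members' changes was not tested.

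The members with an E-box (16) and without one (17) overlapped in their changes. Their medians with MLN4924 in p53 siRNA cells were 1.12 and 0.82, with 14 and 15 called higher, against 17.8% of all genes. With daunorubicin in GL2 siRNA cells the medians were -0.80 and -0.53, with 11 and 5 called lower, against 9.93% of all genes. These are descriptions of 33 genes, with no test. UTP20 and NOP10, whose E-boxes are shown above, were the 2 of the 16 not called with MLN4924 in p53 siRNA cells.

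Genes of proliferating cells moved with some of these groups. Of 10 such genes, among them MKI67, TOP2A and CCNB1, all 10 fell with daunorubicin (9.93% of all genes) and with Nutlin (9.67%) in GL2 siRNA cells. The medians were -4.00 and -4.16, and 8 of the 10 genes fell with MLN4924 (7.06% of all genes), median -1.72. Their summed linear signal was 15848 to 18132 on the 6 GL2 siRNA arrays with DMSO, 928 to 1122 with daunorubicin, 767 to 827 with Nutlin and 5443 to 9103 with MLN4924. Under p53 siRNA the sum was 16135 to 18566 with MLN4924 and 8838 to 13762 with daunorubicin. With MLN4924 3 fell and 2 rose there, against 7.6% and 17.8% of all genes. The part of proliferation in the members' changes was not tested.

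Of 9 melanocyte markers 5 fell with MLN4924 in p53 siRNA cells (7.6% of all genes) and 3 in GL2 siRNA cells (7.06%). Their summed signal was 3504 to 4374 with GL2 siRNA and DMSO, 1071 to 1286 with MLN4924, and 3649 to 4267 with daunorubicin. SOX10 fell by 2.47 (SE 0.21, adjusted p = 1.2e-10) with MLN4924 in GL2 siRNA cells. The 4 leukocyte markers measured summed to 171 to 358 with DMSO, 114 to 266 with MLN4924 and 450 to 528 with daunorubicin in GL2 siRNA cells. No marker of the melanocyte, epithelial, fibroblast or leukocyte lists was at 0 on every array, since array signals hold background. The actin 5′ to 3′ ratio was 0.727 to 0.769 with daunorubicin and 0.697 to 0.732 with Nutlin in GL2 siRNA cells, against 0.806 to 0.886 in the first DMSO set. The part of these differences in the members' changes was not tested.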

How the data were processed

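RNA of 42 samples was measured on 1 Affymetrix array each. The deposited table gives the authors' signal intensity on a linear scale for 54675 probe sets. Per the submitters' processing notes the tool was Affymetrix Expression Console, with no version given. The trimmed mean (2% at each end) was the same on every array. Values of 0 (147) were raised to 0.1 before log2 was taken, and the highest signal was 11983.8. The platform annotation, which can be old, gave 1 symbol to 41091 probe sets, several to 1801 and none to 11721, with 62 controls. Each gene was represented by its brightest probe set with 1 symbol. The median gene lay at 5.63 to 6.35 on different arrays, so each array was centred on it. Neither scan dates nor background values were used here, and the number of arrays limits the precision.

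All 14 groups entered 1 fit in limma 3.58.1 (R 4.3.3; lmFit, contrasts.fit, eBayes; 28 residual degrees of freedom), and p-values were adjusted by Benjamini-Hochberg over 19775 genes. Tested on data simulated for MLN4924 in p53 siRNA cells over 19775 genes, the calls recovered 19.4% of 67 changes of 1.5-fold, 64.2% of 67 of 2-fold and 72.7% of 66 of 4-fold, with 4 false calls. The simulation changed only these genes, drawn from genes of any signal. In the data 17.8% of genes were called higher and 7.6% lower, and the members were bright, from percentile 67.4 upwards. These rates therefore do not describe the calls made here, and a change of exactly 1.5-fold lies at the limit of the call. The members and lists were chosen with earlier results of these data known. Values per array are given for the members with the lowest and highest change with MLN4924 in p53 siRNA cells and with daunorubicin in GL2 siRNA cells within each role, and for the best known members. From other lists up to 4 genes with the largest moderated statistic in these comparisons could be named. Alternatives were other scalings, probe sets, a pseudocount of 16, leaving out dim genes or arrays, other control sets, fits of fewer groups and the replicate number as a block. Replicate numbers did not pair samples. Promoters came from RefSeq (GRCh38.p14). Other steps ran in Python 3.11.15 with pandas 2.3.3, scipy 1.17.1, numpy 2.4.6 and matplotlib 3.10.9.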

Additional observations from a re-analysis of the deposited data

Results flagged for a closer look

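WDR12 read 9.54 in replicate 2 of the first DMSO set after GL2 siRNA, far below the other 5 DMSO arrays of that siRNA, which read 9.87 to 10.00. Among the 42 such tests 1 stood out, and chance alone gives about 1 in 20.

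The change with MLN4924 differed between p53 and GL2 siRNA cells for 19 members, each more positive after p53 siRNA by limma's test of the difference. The differences were 0.86 for NOP58, 0.78 for GAR1, 0.62 for NOLC1, 0.78 for LYAR, 0.62 for UTP20, 1.0 for RRP9, 0.62 for NAT10, 0.70 for BYSL, 0.85 for RRS1 and 0.93 for RRP1B. All but NOP58, RRS1 and RRP1B of these lost the call as deposited. The calls of NOLC1, UTP20, NAT10 and BYSL also ended without replicate 3 of MLN4924 after GL2 siRNA, at 0.53, 0.54, 0.52 and 0.54. The calls of NOLC1, UTP20 and NAT10 ended without replicate 3 of MLN4924 after p53 siRNA, that of NAT10 without replicate 1 there (0.56), and that of UTP20 without replicate 2 or 3 of the first GL2 siRNA DMSO set (0.58 for each). The RRP9 call was the least stable. It ended without any 1 of 14 of the 18 arrays, all but replicate 1 of the first p53 siRNA DMSO set, replicate 1 of the second GL2 siRNA set, replicate 2 of MLN4924 after GL2 siRNA and replicate 3 of the second p53 siRNA set, and ranged from 0.85 to 1.10.

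The change with Nutlin differed in the same way for 5 members, by 0.78 for GAR1, 0.73 for NOLC1 and 1.29 for RRP1B.

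The change with daunorubicin was more positive after p53 siRNA for 25 members. The differences were 0.74 for POLR1B, 0.66 for POLR1C, 0.84 for RRN3, 0.62 for FBL, 0.95 for NOP58, 1.03 for GAR1, 1.16 for NOLC1, 0.71 for LYAR, 0.66 for UTP20, 0.91 for BYSL, 1.05 for RRP12, 0.83 for WDR12 and 1.62 for RRP1B. Without the degraded library the calls of POLR1B, POLR1C, FBL, LYAR and UTP20 ended, at 0.40, 0.39, 0.57, 0.58 and 0.61. LYAR ranged from 0.55 to 0.80 and UTP20 from 0.52 to 0.81 over all arrays left out. The part of RNA quality in these values was not tested.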

How the results depend on the processing

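Counts of called members kept their direction under every alternative run, except as given here. With quantile normalization 6, 16, 4 and 12 members were called higher with MLN4924 after GL2, p53, CDT1 and BRCA1 siRNA and 7 lower with Nutlin, 2 and 16 had a more positive MLN4924 or daunorubicin change after p53 siRNA, and 13 were higher with MLN4924 than daunorubicin there. Of all genes 7.34%, 8.12%, 4.57%, 6.43%, 8.82%, 3.61%, 8.99% and 8.62% were called in the same order. The deposited scaling gave 6, 18, 4, 13, 7, 4 and 13 for all but the daunorubicin change. Under DMSO it gave 1 member lower with p53 siRNA (1.93% of all genes) and 0 with BRCA1 siRNA (3.85%), and quantile normalization 1 with CDT1 (3.25%) and 0 with BRCA1 siRNA (4.05%). With the mean of all probe sets 5 were higher with MLN4924 after CDT1 siRNA (4.2% of all genes), 2 with daunorubicin after p53 siRNA (4.68%), 3 had a more positive Nutlin change (4.33%), and 4, 1 and 0 were lower with p53, CDT1 and BRCA1 siRNA under DMSO (1.89%, 2.4% and 3.1%). A pseudocount of 16 gave 12 (6.14%) and the first DMSO set 8 (4.19%) for the MLN4924 difference. With that set 15 members were higher with MLN4924 after GL2 (10.2%) and 35 after p53 siRNA (17.6%). The second DMSO set gave 1 lower with Nutlin after p53 siRNA (2.24%) and 10 for the Nutlin difference, and both sets 9. Only the groups compared gave 0 with daunorubicin after p53 siRNA (0.157%) and 6 for the daunorubicin difference. Without the 3 libraries that stood apart these were 1 and 19, and the MLN4924 difference 11.

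With 1 array left out in turn, members higher with MLN4924 were 9 to 18 after GL2, 34 to 36 after p53, 8 to 12 after CDT1 and 18 to 23 after BRCA1 siRNA. With all arrays 10.2%, 17.8%, 5.93% and 9.79% of all genes were called. Further shares in this paragraph are also those of all genes with all arrays, unless stated. They move too, as from 6.96% to 4.48% for the MLN4924 difference without replicate 3 of MLN4924 after GL2 siRNA. In GL2 siRNA cells 11 to 13 were lower with Nutlin (9.67%) and 18 to 22 with daunorubicin (9.93%). In p53 siRNA cells 0 to 0 were lower with Nutlin (0.0152%) and 1 to 6 higher with daunorubicin (5.67%), 1 being the value without the degraded library (2.8% there). The differences between siRNAs ran from 9 to 21 (MLN4924), 4 to 6 (Nutlin, 5.3%) and 18 to 26 (daunorubicin, 9.65%). MLN4924 less daunorubicin ran from 34 to 36 (GL2, 18.2%) and 27 to 36 (p53, 19.1%). The siRNAs under DMSO gave 1 to 3 (p53, 2.27%), 1 to 3 (CDT1, 3.58%) and 0 to 2 (BRCA1, 4.37%). For CDT1 siRNA the 1 came without replicate 2 of CDT1, and for BRCA1 siRNA the 2 without its replicate 2 and the 0 without its replicate 3 or replicate 3 of the second GL2 siRNA DMSO set.

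With the replicate number as a block the counts were those reported, except 24 for the daunorubicin difference. The 273 pairs of arrays with the same number had a median correlation of deviations of -0.00964, with -0.776 the lowest, so that the numbers do not pair samples. Over single genes, 235 calls were followed and 94 held under all alternatives. The deposited scaling ended 100, the mean of all probe sets 45, quantile normalization 107, only the groups compared 29, the pseudocount 22, leaving out the 3 libraries 20, the block 1, and leaving out dim genes or the trend and robust options 0. With the mean of all probe sets 2 changed sign, the MLN4924 difference of UTP18 (-0.30) and the MLN4924 change of PES1 after CDT1 siRNA (-0.04), where a dimmer probe set differed from the one used. A change under 1.5-fold in 3 arrays a group is not called here, and a missing call does not show that a gene did not change.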
